A study of Mus musculus with 12 samples.

Results

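The expression of 10 genes of hepatic insulin signalling was followed in the ageing mouse liver. The genes were chosen by name from the count table, by mapping its Ensembl identifiers to gene symbols, and all 10 of 10 were found among its 53465 genes. They comprise the insulin receptor Insr, its inhibitors Enpp1 and Grb14, the adaptors Irs1 and Irs2, the kinase gene Akt2, the transcription factor genes Foxo1 and Foxo3, and the binding protein genes Igfbp1 and Igfbp2. Steady-state RNA was measured by RNA-seq in liver tissue of C57BL/6N mice. Mice of 3 months are called young, those of 12 months middle-aged and those of 18 months aged, and each age had 4 livers, each from a separate animal. The study describes its mice as healthy males fed a standard diet freely. The labels name no genotype, transgene or treatment, and no hour of collection or feeding state was used here.

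Insulin binds its receptor on the hepatocyte surface, the receptor phosphorylates IRS adaptors, and these recruit phosphoinositide 3-kinase, which leads to activation of AKT2. AKT2 phosphorylates FOXO transcription factors and so keeps them out of the nucleus, which lowers transcription of genes for glucose production and of Igfbp1. ENPP1 is a membrane enzyme that hydrolyses extracellular nucleotides and can also bind the insulin receptor and dampen its signalling, and GRB14 is an adaptor that inhibits the receptor's kinase. Most of this pathway works through phosphorylation, which RNA levels do not report.

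The core promoters are shown first because FOXO proteins act through DNA and Igfbp1 is a textbook FOXO target. RefSeq promoter windows (GRCm38.p6, from 250 bases before to 50 bases after a transcript start) were found for 9 of the 10 genes, in 13 windows. Both strands were searched for the FOXO-type heptamers TGTTTAC (a forkhead consensus), TGTTTTG (a common FOXO variant) and TATTTTG (a further variant) and for the E-box CACGTG, which reads the same on both strands and which clock factors and SREBP-1 can bind. At least 1 heptamer was found in 4 genes (Igfbp1, Irs1, Irs2 and Enpp1), and CACGTG in 3 (Igfbp2, Irs1 and Irs2). Matches stand in capitals in the stretches below, each printed 5′ to 3′ on the strand of its gene.
Igfbp1: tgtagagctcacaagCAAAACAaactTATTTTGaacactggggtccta
Enpp1: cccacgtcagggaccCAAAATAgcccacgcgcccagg
Irs2: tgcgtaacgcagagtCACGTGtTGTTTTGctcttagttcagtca
Irs1: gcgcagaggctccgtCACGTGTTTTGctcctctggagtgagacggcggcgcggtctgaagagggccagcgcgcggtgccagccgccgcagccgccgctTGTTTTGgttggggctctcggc

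The Igfbp1 stretch lies at chr11:7197664-7197711 on the plus strand, and its 2 heptamers, CAAAACA and TATTTTG, begin 108 and 97 bases before the start. CAAAACA is TGTTTTG read on the opposite strand. Of 32851 windows of this length, 0.472% held both TGTTTTG and TATTTTG. The Enpp1 stretch lies at chr10:24712150-24712186 on the minus strand, with TATTTTG on the opposite strand beginning 12 bases before the start. The Irs2 stretch, at chr8:11008945-11008988 on the minus strand, places CACGTG 44 and TGTTTTG 37 bases before the start. In Irs1, at chr1:82291450-82291569 on the minus strand, CACGTG at 115 bases overlaps the first of 2 TGTTTTG matches, at 111 and 32 bases. Single motifs were common: 6.28% of all windows held TGTTTTG, 4.36% TATTTTG, 3.65% TGTTTAC, 13.3% at least 1 of the 3 and 7.15% CACGTG. A match is a run of letters and not a measured binding site.

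The libraries held between 8124312 and 10527159 counts assigned to genes. Mitochondrial genes took 19.2% of these in young liver 2 and from 5.48% to 10.7% in the others. Young liver 3 and middle-aged liver 1 had at least 1 count in 22284 and 19982 genes, against 16361 to 17563 in the other livers. Livers 1 and 2 of each age carried another pattern of synthetic spike-in RNA than livers 3 and 4, with correlations of at least 0.997 within these 2 sets and at most 0.925 between them, so results were also computed within each set. Of 8 hepatocyte markers (albumin and others), none passed the DESeq2 or edgeR test between any ages, and 5 had an unadjusted p under 0.05 between aged and young livers, with 1 in each of the other pairs of ages. Their summed normalised count was 798900 to 889900 in young livers, 824300 to 931800 at 12 months and 839600 to 1048000 at 18 months. Albumin makes up most of this sum, and the median log2 fold change of the list between aged and young livers was -0.17. The pancreatic genes Ins2 and Gcg were at 0 in every liver, and Ins1 reached at most 3.56, while Cela1, an elastase gene of the same list of 6 pancreas markers, had 258.7 to 793.8 normalised counts in the 12 livers. In such bulk tissue, fewer cells of a type and less RNA per cell cannot be told apart.

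Per kb of exon, Igfbp2 had the highest level of the 10 genes, with a median of 2471 normalised counts per kb over the 12 livers and a range of 1776 to 4144. Akt2 followed with a median of 158 per kb (143 to 194). In every liver Igfbp2 lay above Akt2, and Akt2 above Grb14, the next gene by median. Grb14 (median 87.0 per kb), Igfbp1 (64.5), Insr (64.5) and Foxo3 (48.1) came next, each range overlapping that of its neighbour. Irs2 (28.5), Enpp1 (26.2) and Foxo1 (25.7) also overlapped one another. Irs1 was lowest, with a median of 8.97 per kb, and lay under Foxo1 in 12 of 12 livers. Igfbp1 had the widest range, from 10.6 to 373 per kb, and its place in the order changed with age. In young livers it was at 170.5 per kb or more, above Akt2, whose highest young value was 168, whereas its highest value in middle-aged livers, 43.6 per kb, was under every middle-aged value of Insr, Foxo3, Grb14 and Akt2.

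**Figure D1:**
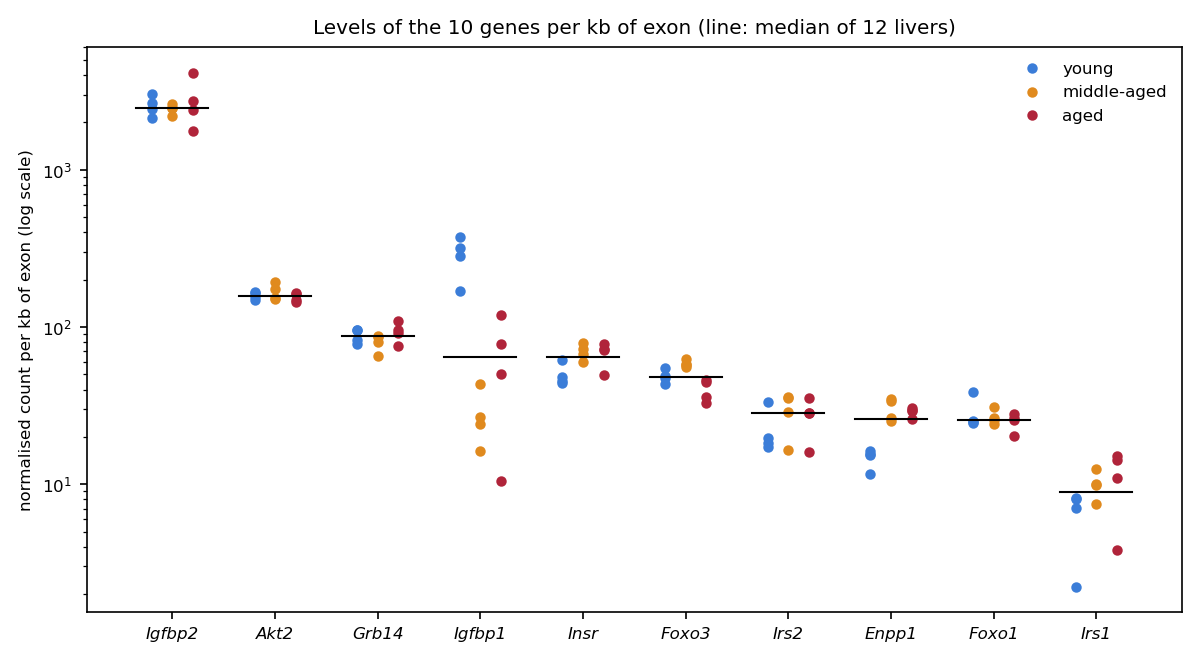
Size-normalised counts per kb of exon (log axis) of the 10 genes, ordered by their median (black line), with 1 point per liver and colour for age. By median over the livers of all ages, Igfbp2 and Akt2 are highest and Irs1 is lowest, at 8.97 per kb. Igfbp1 spans 10.6 to 373 per kb and lies above Akt2 in the young livers.

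With age, 2 of the 10 genes passed the test between aged and young livers: Enpp1 rose and Igfbp1 fell (DESeq2, adjusted p under 0.05), where 3.58% of the 13527 genes tested were called. Between middle-aged and young livers 3 of 10 passed, namely Enpp1, Igfbp1 and Insr, against 6.41% of 11333 genes. Between aged and middle-aged livers 1 of 10 passed, Foxo3, against 1.14% of 10236 genes. Across the 3 ages together 4 of 10 passed (Enpp1, Igfbp1, Foxo3 and Insr), against 6.96% of 12430 genes. The genes that did not pass in any of these were Grb14, Irs1, Irs2, Akt2, Foxo1 and Igfbp2. The first and second comparisons share the young livers, and each shares a group with the third, so they are not independent of each other. The 10 genes were chosen with earlier results of these data known, so their counts are not those of a blindly chosen set. Without the 3 libraries that stand apart (young livers 2 and 3 and middle-aged liver 1), a fit chosen after seeing the data and resting on only 2 young livers, Enpp1 was called in both comparisons with young livers and across the 3 ages, and no other of the 10 genes was called. Fewer genes passed in that fit in general: 93 of 12394 for aged and 74 of 11499 for middle-aged against young, 78 of 13291 for aged against middle-aged and 180 of 13741 across ages.

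**Figure D2:**
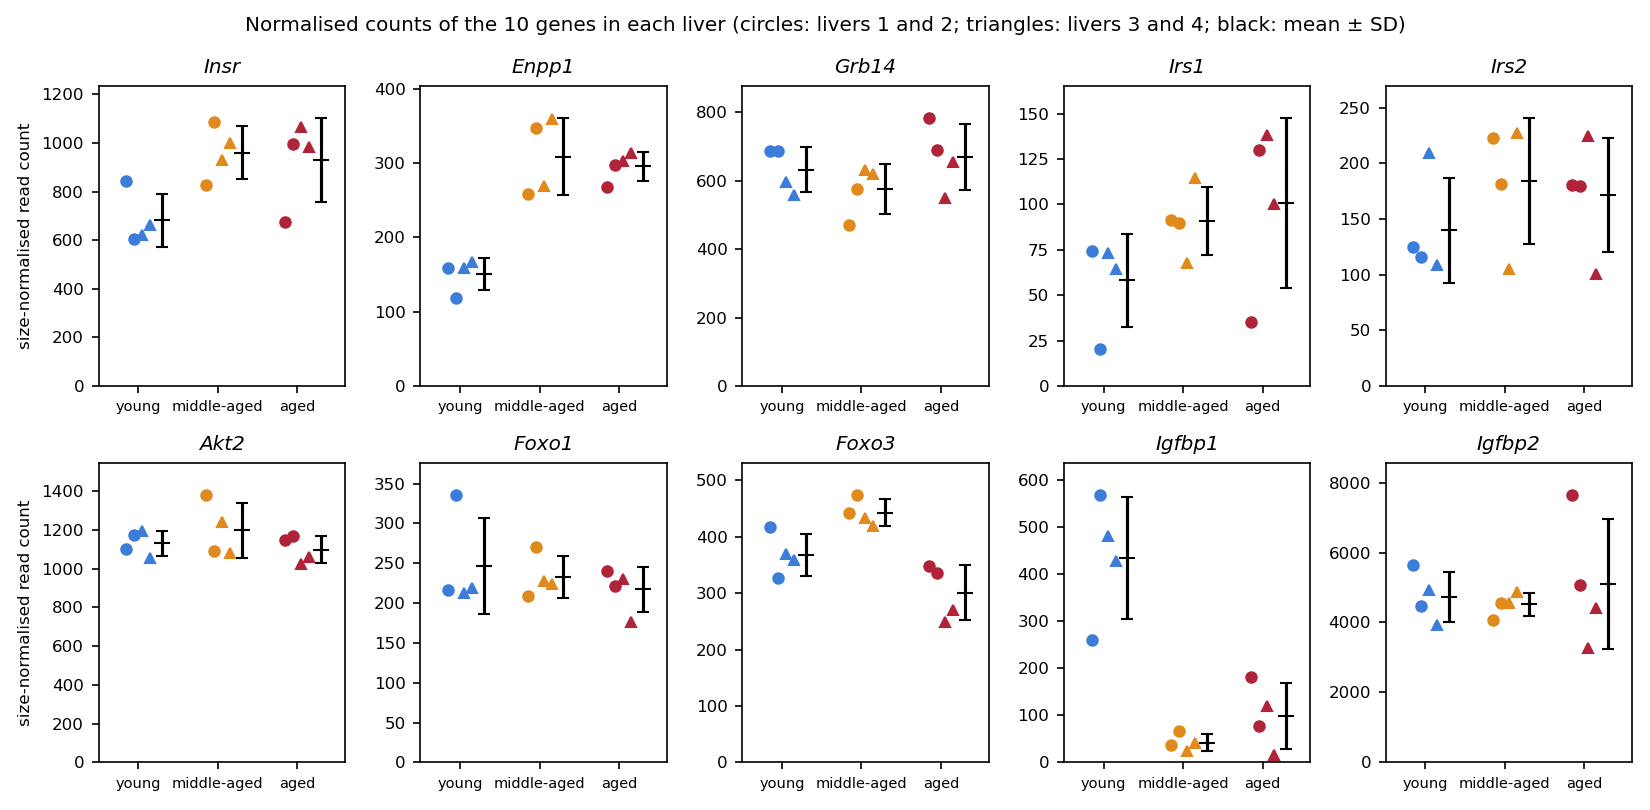
Size-normalised counts of each gene in each of the 12 livers (linear axes from 0); circles are livers 1 and 2 and triangles livers 3 and 4 of an age, and the black bars show the mean ± SD of 4 livers. Enpp1 is higher and Igfbp1 lower in every middle-aged and aged liver than in any young liver.

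At the receptor, Insr had 842.8, 603.7, 619.7 and 661.9 normalised counts in young livers 1 to 4. Middle-aged livers had 827.1, 1087.2, 928.9 and 998.2, and aged livers 676.4, 994.1, 1066.2 and 981.5. Young liver 1 was above the lowest middle-aged liver and above the lowest aged liver, so the ages overlapped. From young to middle-aged, Insr rose by 0.49 on the log2 scale (SE 0.16, DESeq2 adjusted p = 0.0314), or 1.41-fold. The aged livers had a mean of 929.5 ± 172.8 (SD, n = 4), close to the middle-aged mean of 960.4 ± 110.0, but their log2 difference of 0.45 from young livers did not pass (adjusted p = 0.0848). The call between middle-aged and young livers was lost in edgeR (adjusted p = 0.0907) and in 6 of 12 fits that left out 1 liver, with adjusted p of 0.0746 to 0.148 when young liver 2, 3 or 4 or middle-aged liver 2, 3 or 4 was left out. It was also lost with a replicate block (0.0967), without independent filtering (0.0768), within livers 1 and 2 (0.752) and without the 3 libraries that stand apart (0.53), and the call across the 3 ages was lost in 15 of the 21 alternative fits.

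Enpp1 alone of the 10 genes was called against young livers, at both older ages, in each of 21 alternative fits. Young livers 1 to 4 had 158.2, 118.4, 158.8 and 166.9 normalised counts, middle-aged livers 258.2, 347.5, 269.3 and 358.8, and aged livers 268.0, 297.6, 302.4 and 313.8. Every liver of the older groups was above every young liver, whereas the middle-aged and aged livers overlapped. Enpp1 rose 2.04-fold from young to middle-aged (1.03 on the log2 scale, SE 0.15, DESeq2 adjusted p = 7.79e-09) and 1.96-fold from young to aged (0.97, SE 0.15, adjusted p = 1.53e-07). Between middle-aged and aged livers the log2 difference was -0.06, with a 95% interval of -0.34 to 0.22. Over the 21 fits the log2 fold change between aged and young livers was 0.86 to 1.03, with a highest adjusted p of 0.0229. Within livers 1 and 2 it was 1.03 and within livers 3 and 4 it was 0.92.

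Grb14 showed no such pattern. Its counts were 686.8, 686.5, 594.8 and 557.4 in young livers, 470.6, 576.4, 630.5 and 620.4 in middle-aged livers, and 782.8, 688.7, 547.9 and 655.2 in aged livers. The 3 ages overlapped, and the log2 difference between aged and young livers was 0.08, with a 95% interval of -0.18 to 0.34. In the wider list of 13 genes that act on the receptor, fixed together with the 10 genes, 1 passed in a comparison. This was Ptprf, a receptor tyrosine phosphatase, which rose by 0.37 on the log2 scale in middle-aged against young livers (DESeq2 adjusted p = 0.0297; edgeR adjusted p = 0.0992), and 1 of the 12 receptor genes tested there was called. Between aged and young livers none of the 13 was called by DESeq2 or edgeR and 3 had an unadjusted p under 0.05, and between aged and middle-aged livers none of 11 was called by either tool and none had an unadjusted p under 0.05. The median log2 fold change of the list was -0.02 between aged and young livers, where the median of all genes tested was 0.01.

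Irs1 was the lower of the adaptor genes. It had 74.3, 20.4, 73.5 and 64.4 normalised counts in young livers, 91.3, 89.8, 68.0 and 114.3 in middle-aged livers, and 35.1, 130.0, 138.1 and 100.1 in aged livers. Young liver 2 and aged liver 1 lay far under the other livers of their ages, and all ages overlapped. The log2 difference between aged and young livers, 0.79, had an SE of 0.41 and did not pass (DESeq2 adjusted p = 0.325). Without aged liver 1 the difference was 1.07 and passed (adjusted p = 0.0211), in a fit that called 1291 of 12350 genes against 484 of 13527. Irs1 rested on 16 to 158 reads per liver. On the opposite strand its exons overlap those of Gm9747, and since no source used here states whether reads were counted by strand, reads of the pair cannot be told apart; the same holds for Irs2 with 9530052E02Rik and for Foxo1 with Gm20402.

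Irs2 ranged from 101.0 to 227.5 normalised counts over the 12 livers with no order by age. The means were 139.8 ± 47.1 in young livers, 184.1 ± 56.6 at 12 months and 171.6 ± 51.5 at 18 months (SD, n = 4 each). None of its differences passed, and the interval of the log2 difference between aged and young livers, -0.29 to 0.88, leaves room for changes of either sign. Among 14 other adaptor and phosphoinositide 3-kinase genes, including Pik3ca and Pik3r1, none of those tested was called by DESeq2 or edgeR in any comparison. At an unadjusted p under 0.05 there were 3 of 13 for aged against young, 6 of 13 for middle-aged against young and 1 of 12 for aged against middle-aged. Irs4, a further adaptor, was at 0 in every liver.

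Akt2, the main AKT gene of hepatocytes, did not pass in any comparison. It had 1102.9, 1170.4, 1195.5 and 1055.3 normalised counts in young livers, 1381.1, 1089.0, 1239.7 and 1079.4 in middle-aged livers, and 1149.1, 1165.5, 1021.6 and 1057.5 in aged livers. The groups overlapped throughout. The log2 difference between aged and young livers was -0.04, and its 95% interval of -0.23 to 0.15 bounds the change more tightly than for any other of the 10 genes. The ratio of Akt2 to Akt1 within a liver was likewise similar between ages, with a mean log2 ratio of 0.97 ± 0.06 in young livers and 0.98 ± 0.06 at 18 months (SD, n = 4; two-sided exact permutation, adjusted p = 0.904).

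In a list of 25 AKT and mTOR pathway genes, 1 of 25 tested passed between aged and young livers and 1 of 24 between middle-aged and young livers. Trib1, a pseudokinase of the tribbles family, had 458.6, 422.8, 369.7 and 363.2 normalised counts in young livers and 270.0, 309.2, 307.6 and 321.8 in aged livers. These 2 groups did not overlap, and Trib1 fell by 0.42 on the log2 scale (DESeq2 adjusted p = 0.0328), a call that 8 of the 12 fits without 1 liver and edgeR (adjusted p = 0.0949) did not keep. Phlpp1, a phosphatase that dephosphorylates AKT, rose by 0.71 on the log2 scale in middle-aged against young livers (adjusted p = 0.00828). Its counts were 212.3, 131.2, 137.4 and 157.2 in young livers and 230.3, 278.3, 277.3 and 257.6 in middle-aged livers, also without overlap. Between aged and middle-aged livers none of 23 genes passed with DESeq2 or edgeR, and 2 had an unadjusted p under 0.05.

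The FOXO genes differed in their course. Foxo1 had 216.5, 336.2, 213.3 and 218.7 normalised counts in young livers, 209.5, 270.2, 227.8 and 223.5 in middle-aged livers, and 240.9, 221.5, 229.8 and 176.1 in aged livers. Apart from the high young liver 2, these values ran from 176.1 in aged liver 4 to 270.2 in middle-aged liver 2, and no difference passed. Foxo3 had 417.2, 327.3, 369.7 and 359.3 in young livers, 442.8, 474.9, 433.6 and 418.9 in middle-aged livers, and 348.2, 336.2, 249.9 and 270.9 in aged livers. All middle-aged livers were above all young and all aged livers, and the young and aged livers overlapped.

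Foxo3 fell by 0.56 on the log2 scale from middle-aged to aged livers (SE 0.12, DESeq2 adjusted p = 0.0028), or 1.47-fold. The 0.26 difference between middle-aged and young livers and the -0.29 difference between aged and young livers did not pass (adjusted p = 0.189 and 0.198). The fall from middle-aged to aged livers had an adjusted p of 0.106 with edgeR and of 0.0524 in DESeq2 without aged liver 4. The log2 ratio of Foxo1 to Foxo3 was -0.93 ± 0.11 at 12 months and -0.47 ± 0.24 at 18 months (SD, n = 4), with no overlap. Its exact permutation p of 0.0286 is the smallest that 4 against 4 livers allow, and over the 12 ratio comparisons made it became 0.114. Between middle-aged and aged livers 8 of 13 tested clock genes also passed with DESeq2, against 1.14% of 10236 genes, and 5 passed with edgeR. Among them Dbp fell by 2.78 on the log2 scale (DESeq2 adjusted p = 0.00036), and Nfil3 rose by 1.53 (adjusted p = 1.65e-08). The part of the clock genes in the Foxo3 difference was not tested.

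Igfbp1, a secreted binding protein for insulin-like growth factors whose transcription insulin lowers, had the largest fold changes of the 10 genes. Young livers 1 to 4 had 260.1, 569.3, 482.2 and 428.6 normalised counts, middle-aged livers 36.7, 66.4, 24.7 and 41.1, and aged livers 181.6, 77.1, 119.7 and 16.1. Every middle-aged and aged liver was under every young liver, and the aged livers spread over a wider range than the middle-aged ones, from 16.1 to 181.6. Igfbp1 fell 10.3-fold from young to middle-aged (-3.36 on the log2 scale, SE 0.60, DESeq2 adjusted p = 5.58e-06) and 4.41-fold from young to aged (-2.14, SE 0.59, adjusted p = 0.0147). Aged livers had a mean of 98.6 ± 69.8 against 42.3 ± 17.6 in middle-aged livers (SD, n = 4), and that difference did not pass (adjusted p = 0.464). Without aged liver 4 it did, at a log2 fold change of 1.58 (adjusted p = 0.00553).

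The call between aged and young livers rested on few libraries. It was lost without young liver 2 (adjusted p = 0.102), young liver 3 (0.0656) or aged liver 2 (0.0727), and within livers 1 and 2 or livers 3 and 4 alone the log2 fold changes were -1.68 and -2.75 with adjusted p of 0.476 and 0.135. The call between middle-aged and young livers passed in 20 of 21 alternative fits, and the exception was the fit without the 3 libraries that stand apart, with a log2 fold change of -2.97 (adjusted p = 0.0966). Clock genes moved in the same comparison. Of 14 tested, 5 were higher and 1 lower in middle-aged than in young livers with DESeq2, against 6.41% of 11333 genes called. With edgeR 4 were called. Dbp, a clock output factor, rose by 1.95 on the log2 scale (adjusted p = 0.0143), from 129.8 to 220.3 normalised counts in young livers to 503.3 to 908.5 in middle-aged livers. Between aged and young livers 1 of 15 clock genes passed with DESeq2, against 3.58% of 13527 genes, and 0 passed with edgeR. The gene that passed was Cry1, which rose by 0.91 (DESeq2 adjusted p = 0.0188, edgeR adjusted p = 0.0629). However, 8 of the 15 clock genes had an unadjusted DESeq2 p under 0.05 there. The part of clock phase in the Igfbp1 differences was not tested.

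Igfbp2, the other binding protein of the set, had 5629.0, 4466.5, 4917.2 and 3934.4 normalised counts in young livers, 4060.9, 4565.3, 4562.5 and 4865.9 in middle-aged livers, and 7654.2, 5074.4, 3279.7 and 4406.1 in aged livers. Aged liver 1 was the highest and aged liver 3 the lowest of all 12, and no difference passed. The log2 difference between aged and young livers was 0.11 (95% interval -0.29 to 0.50). The log2 ratio of Igfbp1 to Igfbp2 in the same liver was also lower than in young livers, by a difference of -2.57 at 18 months and -3.32 at 12 months, with no overlap (exact permutation p = 0.0286 for each, adjusted p = 0.114). None of 7 other tested genes for IGF ligands and binding proteins, including Igf1, Igfals and Igfbp4, was called by DESeq2 or edgeR in any comparison, and 1 of the 7 had an unadjusted p under 0.05, between middle-aged and young livers.

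**Figure D3:**
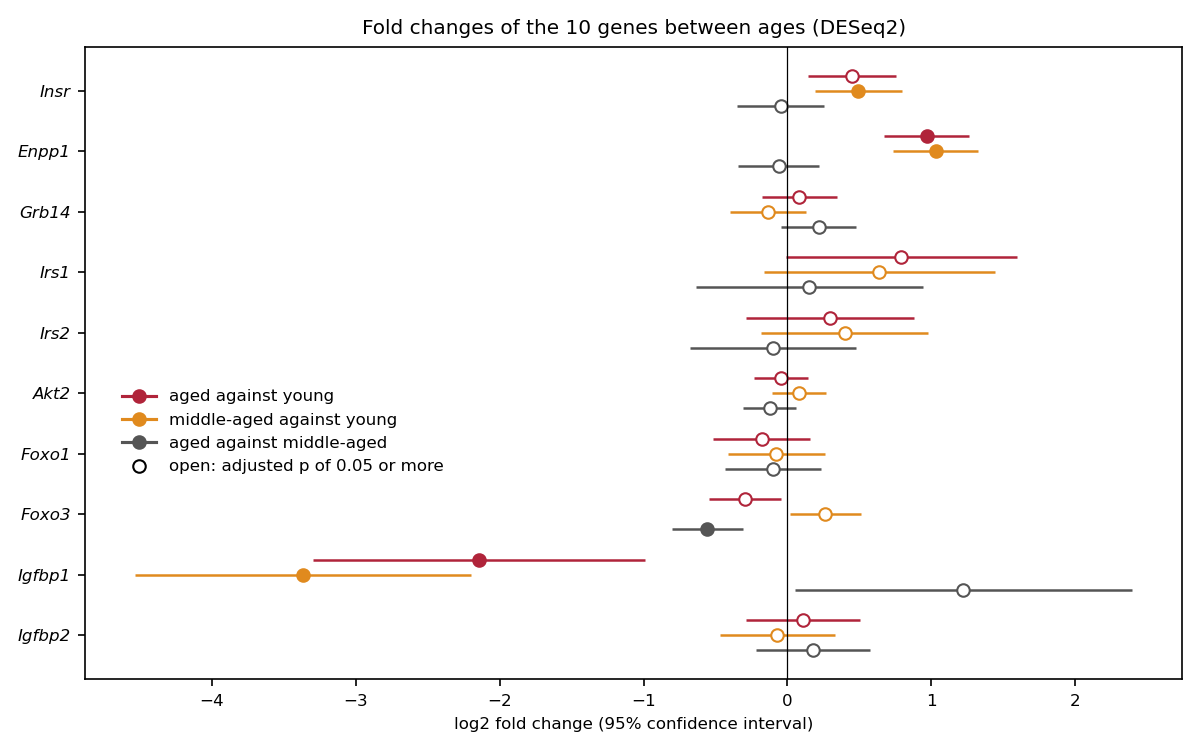
DESeq2 log2 fold changes of the 10 genes with 95% confidence intervals for the 3 pairs of ages; filled points have an adjusted p under 0.05. Enpp1 lies near 1 and Igfbp1 at -2.14 and -3.36 against young livers, Foxo3 at -0.56 between aged and middle-aged livers, and most other intervals include 0.

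Other genes that respond to insulin or FOXO were listed beside Igfbp1. Of 14 such genes none was called between aged and young livers by DESeq2 or edgeR, and 3 had an unadjusted p under 0.05. One of 14 was called between middle-aged and young livers, Srebf1, the gene of the lipogenic factor SREBP-1, which rose by 0.81 on the log2 scale (adjusted p = 0.00382; edgeR adjusted p = 0.0506). Its counts were 1833.2, 1788.1, 1910.0 and 1369.7 in young livers, 3229.9, 3637.0, 2536.0 and 2696.0 in middle-aged livers, and 1682.0, 1682.8, 2938.1 and 2991.0 in aged livers. The middle-aged livers lay above all young livers, and the aged livers split into a low pair, livers 1 and 2, and a high pair, livers 3 and 4.

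Pck1 and G6pc, the gluconeogenic genes best known as FOXO1 targets, are named here after their values were seen. Pck1 had 12671.9, 23027.8, 18590.7 and 19993.9 normalised counts in young livers and 13402.7, 19618.4, 5364.9 and 4248.8 in aged livers, with a log2 difference of -0.80 that did not pass (DESeq2 adjusted p = 0.403). Middle-aged livers had 6628.5, 13603.5, 12058.3 and 8753.6, with a log2 difference of -0.86 from young livers (adjusted p = 0.26), and both older ages overlapped the young livers. The aged livers with low Pck1, livers 3 and 4, were those with high Srebf1. G6pc ranged from 1044.3 to 4038.1 over the 12 livers, and its log2 difference between aged and young livers was -0.07 (adjusted p = 0.964).

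**Figure D4:**
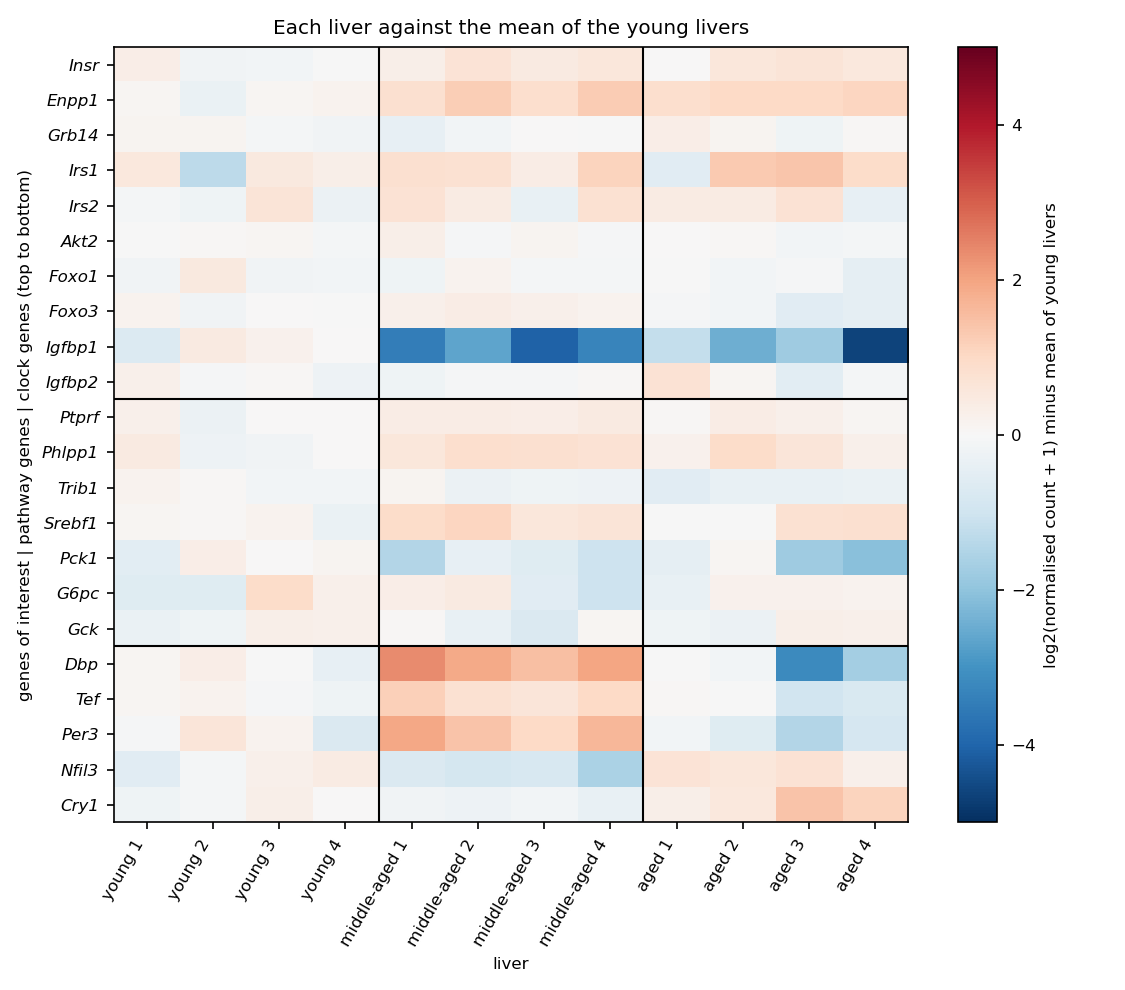
Each liver's log2(normalised count + 1) minus the mean of the young livers, in colour, for the 10 genes (top), 7 pathway genes (middle) and 5 clock genes (bottom). Enpp1 is at 0.79 or more in all 8 older livers, Igfbp1 between -4.62 and -1.20, and Dbp is above 1.5 in middle-aged livers only.

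The rest of the Enpp family was examined beside Enpp1. Enpp2 to Enpp6 were tested and none was called by DESeq2 or edgeR in any comparison; at an unadjusted p under 0.05 there were 2 of 5 for aged against young, none for middle-aged against young and 3 for aged against middle-aged. Enpp7 was at 0 in every liver. Enpp1 has no overlapping gene in the annotation and rested on 93 to 387 reads per liver.

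Markers of other cell types were examined beside Enpp1 and Igfbp1. Between middle-aged and young livers none of the markers of Kupffer cells, endothelium, stellate cells, cholangiocytes, lymphocytes or blood was called by DESeq2 or edgeR, with 2, 2, 0, 0, 0 and 0 of them at an unadjusted p under 0.05. Between aged and young livers 1 of 7 Kupffer markers (Marco), 1 of 7 stellate markers (Ecm1) and 1 of 4 tested cholangiocyte markers (Sox9) were higher. Of 5 blood markers 2 (Alas2 and Hbb-bs) were lower, and all 5 had an unadjusted p under 0.05. With edgeR Ecm1 was called (adjusted p = 0.0364), and Marco, Sox9, Alas2 and Hbb-bs were not (adjusted p of 0.074 to 0.0919). The summed normalised count of the blood markers was 22970 to 86370 in young livers, 12820 to 49840 at 12 months and 9671 to 21230 at 18 months, so aged livers lay under all young ones. The summed stellate markers were 1759 to 3414 in young livers and 2602 to 3844 at 18 months and overlapped. Adipose markers stood high in middle-aged liver 3, with 89.2 normalised counts of Adipoq and 84.8 of Plin1 against at most 11.7 and 15.4 in the other livers. The summed adipose markers were 12.7 to 43.8 in young livers, 11.02 to 317 at 12 months and 10.04 to 179.1 at 18 months. The highest sum at 18 months, in aged liver 3, was nearly all Cidec. That liver had 177.4 normalised counts of Cidec and 0 of Adipoq, Plin1 and Lep. Of the 5 adipose markers DESeq2 gave an adjusted p for 2 between aged and young livers and for 1 in each of the other pairs of ages. None was called, 1 had an unadjusted DESeq2 p under 0.05 in each pair, and edgeR, which tested Cidec of this list, did not call it. Without middle-aged liver 3, Enpp1 and Igfbp1 still passed for middle-aged against young. The part of these cells in the other results was not tested.

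The age differences were also compared between livers 1 and 2 and livers 3 and 4, the sets with different spike-in patterns. In an interaction test with DESeq2, none of the 10 genes was called, with a lowest adjusted p of 0.782 for aged against young and 0.856 for middle-aged against young. At an unadjusted p under 0.05 there was none for the former and 1 for the latter (Grb14). Few genes were called in this test at all: 79 of 10799 tested for aged against young and 55 of 13005 for middle-aged against young. A count of 0 among 10 genes is near that share. With 2 livers per age and set, small differences were not detectable.

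Within ages, the 10 genes were compared with each other across the 12 livers after removing the mean of each age. Of 45 pairs none passed after adjustment (exact permutation of livers within ages), and 8 had an unadjusted p under 0.05. The lowest p belonged to Foxo1 and Igfbp1, with Pearson's r of 0.67 (p = 0.00477, adjusted p = 0.12) and Spearman's rho of 0.76 (p = 0.0102, adjusted p = 0.348); r was 0.80 without the 2 livers farthest in Foxo1, 0.64 within livers 1 and 2 and 0.72 within livers 3 and 4. Grb14 and Igfbp2 came next, with r of 0.80 (p = 0.00535, adjusted p = 0.12) and rho of 0.72 (p = 0.0232, adjusted p = 0.348), and r was 0.74 without the 2 farthest livers. For Insr and Irs1 the same permutation gave r of 0.72 (p = 0.0255, adjusted p = 0.206), which dropped to 0.50 without the 2 livers farthest in Insr. The remaining pairs with a permutation p under 0.05 were Enpp1 and Irs1 (r = 0.70, p = 0.0195), Foxo3 and Igfbp2 (0.79, p = 0.0201) and Insr and Enpp1 (0.60, p = 0.0418). Akt2 ran opposite to Enpp1 (r = -0.755, p = 0.0304) and to Insr (-0.603, p = 0.032).

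Likeness was sought among the 8888 genes whose normalised counts averaged 50 or more. The gene most like Enpp1 over the 12 livers, by Pearson's r of log2(normalised count + 1), was Nr2f2, which encodes the nuclear receptor COUP-TFII (r = 0.95). Its means were 196 normalised counts in young livers, 289 at 12 months and 275 at 18 months. Cdc42bpg, Nrp2, Plekhb1 and Rassf8 followed with r of 0.93 to 0.94. Plekhb1 went from a mean of 167 in young livers to 393 at 12 months and 412 at 18 months. All 5 were lowest in young livers, and the livers share their ages and libraries, so these coefficients are descriptions.

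The gene most like Igfbp1 was Ostc, a subunit of the oligosaccharyltransferase complex (r = 0.91), with means of 647 normalised counts in young livers, 399 at 12 months and 475 at 18 months. Egr1, an immediate early transcription factor, followed (r = 0.89). It had 246.3, 675.0, 192.0 and 728.3 normalised counts in young livers, 32.8, 26.9, 57.4 and 47.1 in middle-aged livers, and 303.1, 42.4, 98.8 and 28.6 in aged livers. Aged liver 1 was the highest and aged liver 4 the lowest aged liver for both Egr1 and Igfbp1. Srp19, Sys1 and Ip6k2 completed the list, with r of 0.87 to 0.88.

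**Figure D5:**
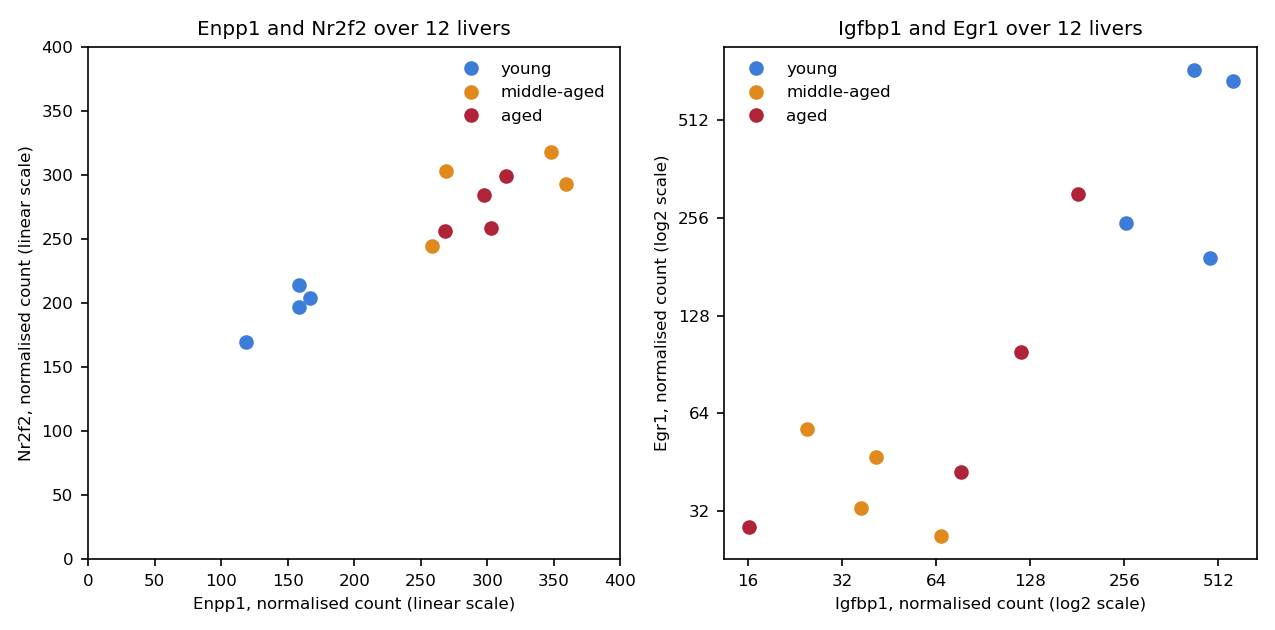
Enpp1 against Nr2f2 (linear axes from 0) and Igfbp1 against Egr1 (log2 axes), both in normalised counts, with 1 point per liver coloured by age. Young livers sit at the low end of both axes for Enpp1 and Nr2f2 and at the high end for Igfbp1, while the aged livers run from 16.1 to 181.6 in Igfbp1.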

How the data were processed

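The authors deposited 1 table of unnormalised read counts per gene for the 12 livers. The submitters' processing notes name STAR 2.5.2b, SAMtools 1.9, featureCounts, R 3.6.3, edgeR 3.28.1 and DESeq2 1.26.0 and the builds mm10 and GRCm38, with no roles. Their extraction protocol covers young and old livers only, and the study credits its 3-age RNA-seq to an atlas, so the preparation of these libraries is uncertain. Groups and replicate numbers came from the titles. Of 53465 identifiers, 53274 were in the GENCODE M21 annotation of GRCm38, and 92 spike-ins were left out of the gene tests.

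Genes with at least 1 count (28449) entered 1 DESeq2 1.42.0 fit of all 12 livers by age in R 4.3.3 (Wald tests per pair, likelihood ratio test for 3 ages, Benjamini-Hochberg adjustment over all genes tested, threshold 0.05). Counts divided by its size factors are the normalised counts; values per kb used the union of exons. Alternatives were edgeR 4.0.16, TMM factors, a filter of 10 counts in 4 libraries, no independent filtering, a replicate block, the spike-in set as covariate or alone, and leaving out each liver. Fits were tested on simulated data. Ratios within a liver used a pseudocount of 0.5 and two-sided exact permutation. A floor of 3 counts was 0.285 to 0.369 on the CPM scale. No pair of livers of an age agreed within sampling noise (chi-square per gene at least 9.21). All 10 genes were named whatever their values; of the other lists the called genes were named, and the 5 genes most like Enpp1 and Igfbp1. The genes and lists were chosen with earlier results of these data known.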

Additional observations from a re-analysis of the deposited data

Results flagged for a closer look

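Irs2 in young liver 3, at 209.7 normalised counts, stood apart from the other young livers, which had 108.4 to 125.3. Foxo1 in young liver 2, at 336.2, stood apart from 213.3 to 218.7 in the other young livers. These are 2 of 42 groups of 4 livers examined, and chance alone flags about 1 in 20, or 2.1 of 42.

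The spike-in transcripts, which were not among the genes compared, took at least 1.589% of all counts in every library (lowest in middle-aged liver 3, 95% Wilson interval 1.581% to 1.597%) and 10.63% in young liver 2. The intervals cover counting error only.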

How the results depend on the processing

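Enpp1 against young livers kept its direction and call in all 21 alternatives. With edgeR, 0 of the 10 genes passed between aged and middle-aged livers (2 at an unadjusted DESeq2 p under 0.05) and 2 across the 3 ages. Within livers 1 and 2, 1 passed between aged and young, 0 between aged and middle-aged and 2 across ages. Of all genes tested there, 137 of 11066, 34 of 11066 and 270 of 13413 passed. Without the 3 libraries that stand apart, chosen after seeing the data, the counts were 1 for aged and 1 for middle-aged against young, 0 for aged against middle-aged and 1 across ages. That fit called 93 of 12394, 74 of 11499, 78 of 13291 and 180 of 13741 of all genes tested. Of the 80 other pathway genes, 1 of 77 tested passed for aged against young and 3 of 75 for middle-aged against young. For aged against middle-aged 0 of 72 passed (7 at an unadjusted p under 0.05), and across ages 2 of 75. Of all genes tested, 3.58%, 6.41%, 1.14% and 6.96% passed. Within livers 3 and 4 the pathway counts were 8, 8, 6 and 12. All genes gave 482 of 11411, 305 of 8379, 307 of 12421 and 637 of 12421 there. With edgeR the pathway counts were 0, 1, 0 and 0, where 172, 280, 13 and 234 of 12099 genes passed.

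Leaving out 1 liver gave 1 to 5 genes for aged against young, 2 to 3 for middle-aged against young, 1 to 1 for aged against middle-aged and 3 to 5 across ages. For aged against young the count of 5 came without aged liver 1, when Insr, Irs1 and Foxo3 passed too. That of 1 came without young liver 2, young liver 3 or aged liver 2. Of all genes tested there, 1291 of 12350 passed without aged liver 1, against 484 of 13527 in the main fit. Without young liver 2, young liver 3 or aged liver 2, 258 of 13440, 337 of 13889 and 336 of 12878 passed. For middle-aged against young, the fits without 1 liver called from 345 of 8526 to 1095 of 11260 of all genes tested. For aged against middle-aged they called from 45 of 13993 to 198 of 10714, and across ages from 496 of 12894 to 1637 of 12349.

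Small log2 differences that had not passed changed sign. Within livers 3 and 4, aged against middle-aged was 0.095 for Insr, -0.049 for Grb14 and -0.29 for Igfbp2, middle-aged against young was 0.11 for Grb14, 0.053 for Foxo1 and 0.082 for Igfbp2, and aged against young was -0.21 for Igfbp2 and -0.030 for the Akt2/Akt1 ratio. Within livers 1 and 2, aged against middle-aged was -0.13 for Irs1, 0.26 for Irs2/Irs1 and 0.011 for Akt2/Akt1, and aged against young was 0.03 for Akt2 and -0.11 for Foxo1/Foxo3. Without the 3 libraries it was 0.027 for Akt2 there, 0.00731 for Irs2 in aged against middle-aged, and 0.14 for Foxo1 in middle-aged against young. Leaving out 1 liver, ranges that crossed 0 were, for aged against middle-aged, Insr -0.12 to 0.078, Enpp1 -0.14 to 0.018, Irs1 -0.037 to 0.44, Irs2 -0.30 to 0.087, Igfbp2 -0.086 to 0.34, Irs2/Irs1 -0.58 to 0.20 and Akt2/Akt1 -0.080 to 0.015. For aged against young they were Grb14 -0.0013 to 0.17, Foxo1 -0.24 to 0.0043, Igfbp2 -0.16 to 0.27 and Akt2/Akt1 -0.020 to 0.032. For middle-aged against young they were Foxo1 -0.16 to 0.11, Igfbp2 -0.15 to 0.025 and Akt2/Akt1 -0.0097 to 0.085. The cause was not tested.

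The replicate numbers belong to different animals, and livers of the same number correlated at -0.30 to 0.16 in their deviations from the age means, so they were not treated as pairs. With a replicate block 2 of the 10 genes passed for aged against young, 2 for middle-aged against young, 1 for aged against middle-aged and 3 across ages. Insr was the gene lost for middle-aged against young and across ages. Of all genes tested with the block, 655 of 22955, 385 of 11902, 426 of 28449 and 451 of 13005 passed, in the same order.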
